A study of Homo sapiens with 2 samples.

Results

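Aminoacyl-tRNA synthetases were examined as 1 gene group in C-to-U edit tables from long-read sequencing of HEK293T cells. The group was given as 37 gene symbols, and its members were the loci of the isoform table that GENCODE 44 assigned to those symbols by whichever gene shared most exonic bases with them on one strand of hg38. Of the 37 symbols, 36 had a locus, out of 12869 loci in all, and VARS2 had none. A listed edit site was present at 35 of the 36 loci, out of 12178 loci with a site, and the glycine enzyme GARS1 had a locus without any. No aspartate enzyme was among the symbols given.

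HEK293T is a human embryonic kidney cell line, named HEK293XT in the cell line field of the labels. As the study describes its method, methanol-fixed cells were treated with purified APOBEC1, a cytidine deaminase, joined to a nanobody that binds rabbit IgG. In the RBFOX2 library an antibody against RBFOX2 placed the fusion at that RNA-binding protein, and in the enzyme-only library the fusion was applied without it. Both were unmodified cells sequenced on the PacBio platform, with 1 library per group, so every difference below is between these 2 libraries and has no replicate check.

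Aminoacyl-tRNA synthetases attach each amino acid to its tRNA and so set the reading of the genetic code. Separate nuclear genes usually encode the cytosolic and the mitochondrial enzyme for an amino acid, while GARS1 and KARS1 serve both compartments. Several cytosolic enzymes are held together with scaffold proteins in the multisynthetase complex. RBFOX2 is a splicing regulator that binds the hexamer UGCAUG, and APOBEC1 deaminates cytosines, preferring those that follow A or U.

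The 6 stretches of sequence below carry the motif results and are shown first, 5′ to 3′ on the transcribed strand of hg38, written with T for U. Capitals mark each TGCATG, the motif as spelled in DNA, together with every cytosine that was listed as edited in the RBFOX2 library within the stretch. Cytosines also listed in the enzyme-only library are marked too, as in FARSB and NARS1, and those listed only there are not marked. In the ZMAT2 exon 2 motifs overlap. They are among the synthetase motifs with most RBFOX2 sites in coding sequence and 3′UTR, with a motif in the exons of a neighbouring gene, ZMAT2, that the isoform table joins to HARS2. UTR stretches are limited to 30 bases.
NARS1 3′UTR, chr18:57600704-57600733, minus strand: ttCtCcaCCaaaTGCATGtcatgtattctc
WARS1 3′UTR, chr14:100334634-100334663, minus strand: gctggCtaaCatTGCATGgtcggatagaga
FARSB coding sequence, chr2:222624317-222624402, minus strand: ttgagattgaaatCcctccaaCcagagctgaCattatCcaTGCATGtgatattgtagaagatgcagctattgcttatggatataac
WARS2 coding sequence, chr1:119033116-119033201, minus strand: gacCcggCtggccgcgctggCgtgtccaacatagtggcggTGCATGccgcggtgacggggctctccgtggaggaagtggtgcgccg
NARS2 coding sequence, chr11:78571356-78571441, minus strand: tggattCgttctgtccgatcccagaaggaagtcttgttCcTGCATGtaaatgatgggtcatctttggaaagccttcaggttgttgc
ZMAT2 exon within the HARS2 locus, chr5:140706239-140706268, plus strand: tctagccacCtgTGCATGCATGtgtatttC

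Each table gives, for every site, the number of converted reads and the reads of the whole locus. The RBFOX2 table held 121930 distinct sites and 2431345 summed locus reads, and the enzyme-only table held 103684 sites and 2233600 reads. Sites listed in both tables (12573) were left out unless stated, and the rest are called unshared. At the members, reads ranged from 18 to 944 per locus in the RBFOX2 library (median 274) while those of the enzyme-only library ranged from 56 to 935 (median 258.5), with a median ratio of 1.07. Reads of neurofilament genes that HEK293 cells are known to transcribe were present (NEFL with 203 and 161 reads, NEFM with 281 and 263, INA with 86 in each), PAX2 had 3 reads in the enzyme-only library alone and LIN28B had no locus. ALB, HBB, PTPRC, COL1A2 and VIL1 had no locus either.

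As listed, the members carried 704 unshared sites in the RBFOX2 library against 706 in the enzyme-only library. This near equality came with a listing rule of the tables. A site is listed only where its converted reads exceed a fraction of 0.002 of the locus reads, so a locus with 500 reads or more lists no site with 1 converted read. The threonine enzyme TARS1 had 505 reads in the RBFOX2 library against 463 in the enzyme-only library, with 3 and 80 listed sites. The methionine enzyme MARS1 had 524 and 489 reads, with 11 and 62 listed sites. Where the larger read number set the minimum in both libraries, TARS1 kept 3 and 11 sites and MARS1 kept 11 and 5. TARS1 then had a log2 ratio of sites, defined below, of -2.07 (-4.71 to -0.31), the lowest of any member, from 14 sites, and MARS1 had 0.71 (-0.86 to 2.66) from 16. With this common read minimum, used for all site ratios below, the members had 700 unshared sites in the RBFOX2 library against 579 in the enzyme-only library.

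**Figure D1:**
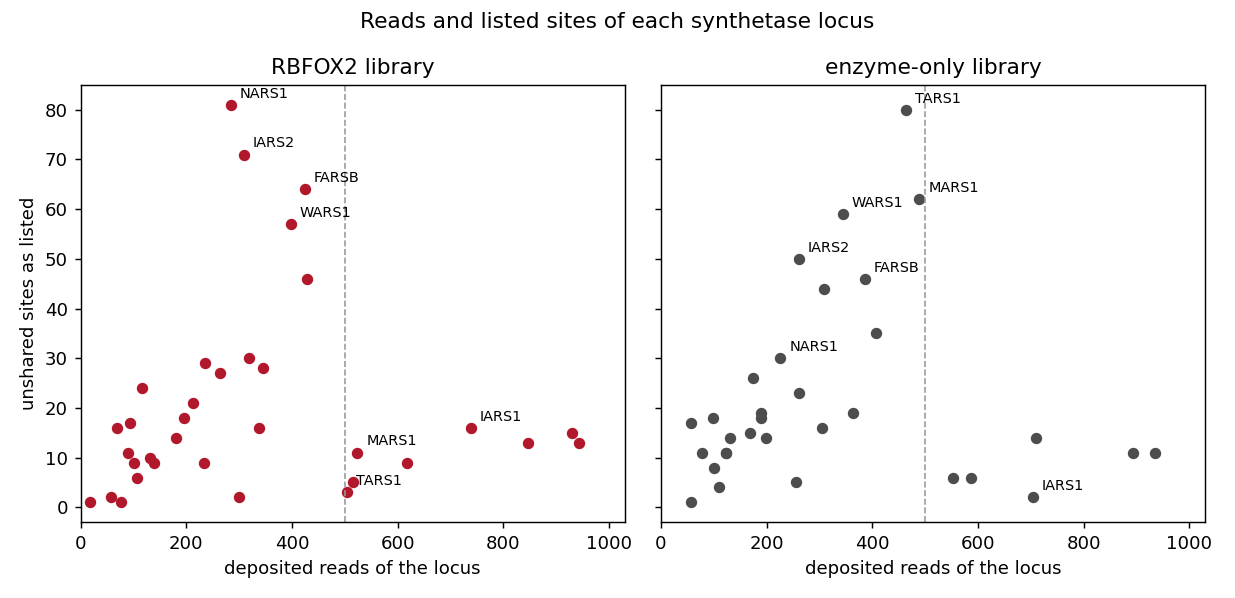
Each point is a synthetase locus, with its deposited reads on the horizontal axis and its unshared sites as listed on the vertical axis, for the RBFOX2 library (left) and the enzyme-only library (right). The dashed line marks 500 reads, and TARS1 and MARS1 sit on different sides of it in the 2 libraries.

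**Figure D2:**
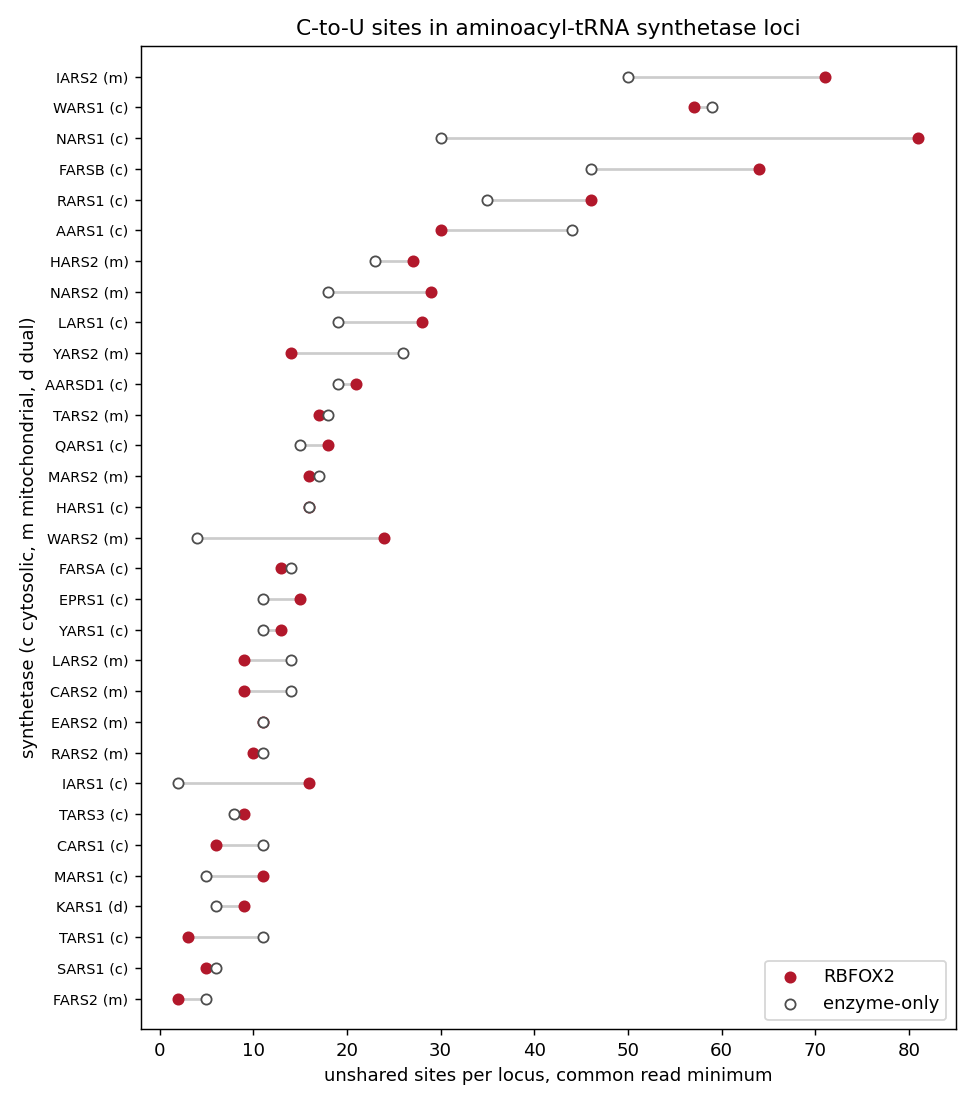
Number of unshared sites per synthetase locus with the common read minimum, in the RBFOX2 library (filled) and the enzyme-only library (open). NARS1 had 81 and 30 sites, WARS2 had 24 and 4, and YARS2 had 14 and 26.

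Pooled over all members, sites were not more frequent in the RBFOX2 library once the library totals were taken into account. The log2 site ratio, RBFOX2 over enzyme-only adding 0.5 to each count and scaling by the unshared totals, was -0.09 (95% interval -0.25 to 0.08). Intervals are exact Clopper-Pearson intervals here and below. They cover counting error only and treat sites as independent, although sites with 1 converted read can lie in the same molecule, which the tables do not show. Of the 23 members with at least 20 sites, 8 had a ratio above 0 and 15 below, with a median of -0.22, against a median of 0.04 over all 3461 loci with at least 20 sites. NARS1 and WARS2 had a ratio over 1 (2 of 23, 8.70%, against 15.7% of all such loci), and YARS2 had a ratio under -1 (1 of 23, 4.35%, against 13.4%).

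NARS1, the cytosolic asparagine enzyme (chr18:57600631-57621821, minus strand), carried more unshared sites in the RBFOX2 library than any other member. It had 81 sites among 284 reads in the RBFOX2 library against 30 among 226 in the enzyme-only library, a log2 ratio of 1.06 (0.45 to 1.73). Both parts of the transcript contributed, with 44 and 14 sites in coding sequence and 32 and 13 in the 3′UTR. Sites with at least 2 converted reads numbered 15 in the RBFOX2 library against 1 in the enzyme-only library. A further 15 sites were listed in both libraries, and with these included the ratio was 0.76. Among all exonic cytosines of NARS1, 12.7% were unshared RBFOX2 sites, the highest share of any member, and 4.70% were unshared enzyme-only sites.

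WARS2, the mitochondrial tryptophan enzyme (chr1:119031218-119140662, minus strand), had 24 sites in the RBFOX2 library against 4 in the enzyme-only library, with reads of 117 and 109. Its log2 ratio of 2.09 (0.68 to 4.21) was the highest among members with at least 20 sites. All but 1 of the 24 RBFOX2 sites rested on 1 converted read. The last exon, which holds 70.9% of the cytosines of the canonical transcript, held 18 of the 24 RBFOX2 sites and 3 of the 4 enzyme-only sites. A base A or U preceded 62.5% of the RBFOX2 sites, below the 72.8% over all members. With at least 2 converted reads required, 1 and 0 sites remained.

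YARS2, the mitochondrial tyrosine enzyme (chr12:32746545-32755908, minus strand), went the other way, with 14 sites in the RBFOX2 library against 26 in the enzyme-only library, with reads of 180 and 174. Its log2 ratio was -1.23 (-2.30 to -0.26). The RBFOX2 library had 14 sites in coding sequence and 0 in the 3′UTR, and the enzyme-only library had 19 and 7. Scaled by summed locus reads in place of site totals, the ratio was -0.97. AARS1, the cytosolic alanine enzyme, also had an interval below 0, with 30 and 44 sites and a ratio of -0.90 (-1.63 to -0.21).

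**Figure D3:**
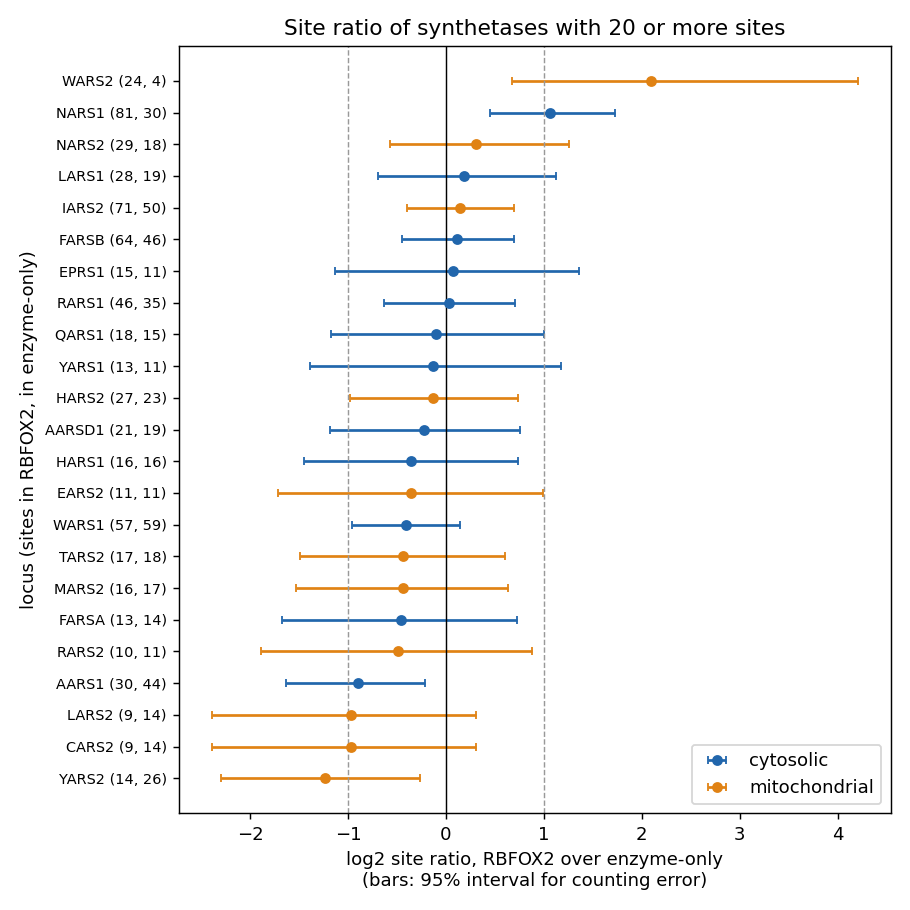
Log2 site ratio (RBFOX2 over enzyme-only, common read minimum, pseudocount 0.5) of the 23 synthetase loci with at least 20 sites, with 95% intervals for counting error and the 2 site counts beside each name. WARS2 (2.09) and NARS1 (1.06) lie right of the dashed line at 1, YARS2 (-1.23) lies left of that at -1, and AARS1 (-0.90) is the other locus whose interval does not reach 0.

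The remaining well covered members differed less between the libraries than their counting error. The cytosolic phenylalanine enzyme has an alpha subunit, FARSA, and a beta subunit, FARSB. FARSB had 64 and 46 sites (log2 ratio 0.11, -0.45 to 0.70), and FARSA had 13 and 14 (-0.46, -1.67 to 0.73). IARS2, the mitochondrial isoleucine enzyme, had 71 and 50 sites (0.14, -0.40 to 0.70). WARS1, the cytosolic tryptophan enzyme and an interferon-induced gene, had 57 and 59 (-0.41, -0.96 to 0.14). The interval of WARS1 did not overlap that of WARS2 on this scale, while those of the asparagine pair NARS1 and NARS2 overlapped, with 29 and 18 sites in NARS2 (0.31, -0.57 to 1.26).

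By compartment, the 19 cytosolic loci had 452 and 362 sites with the common read minimum, a pooled log2 ratio of -0.04 (-0.24 to 0.17). The 15 mitochondrial loci had 239 and 211 sites, a pooled ratio of -0.18 (-0.45 to 0.10). These intervals overlap, so no difference between compartments was detectable at this depth. Mitochondrial enzymes were covered by fewer reads, with a median of 132 in the RBFOX2 library against 411 for cytosolic enzymes, and none reached 500 reads. Listed sites per 1000 reads were 105 and 109 in mitochondrial enzymes and 55.4 and 63.3 in cytosolic enzymes, and the listing minimum moves with the reads in the same direction. The cytosolic enzyme-only value includes the 80 listed sites of TARS1 and the 62 of MARS1. Over all members, the RBFOX2 and enzyme-only densities were 63.5 and 68.9 as listed. With the common read minimum they were 64.0 and 56.8.

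Within the multisynthetase complex, which here comprised EPRS1, IARS1, KARS1, LARS1, MARS1, QARS1 and RARS1, 143 and 93 sites gave a pooled log2 ratio of 0.26 (-0.12 to 0.65). EPRS1, which charges both glutamate and proline tRNAs, had 15 and 11 sites at 931 and 893 reads. The arginine enzyme RARS1 had 46 and 35 sites, the leucine enzyme LARS1 had 28 and 19, and the glutamine enzyme QARS1 had 18 and 15. All 4 had intervals that include 0. The lysine enzyme KARS1 had 9 and 6 sites at 618 and 586 reads, too few for the site minimum.

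IARS1, the cytosolic isoleucine enzyme of the complex (chr9:92210211-92293715, minus strand), had 18 sites in all, just under the minimum of 20. It had 16 in the RBFOX2 library against 2 in the enzyme-only library at similar depth (739 and 704 reads), a log2 ratio of 2.36 (0.55 to 5.81). At this depth each listed site has at least 2 converted reads. The last exon, with 13.2% of the cytosines of the canonical transcript, held 11 of the 16 RBFOX2 sites and both enzyme-only sites, and these 11 lay between chr9 positions 92210351 and 92210781 in the 3′UTR. With shared sites kept, IARS1 reached the site minimum and had a ratio over 1. Its unshared sites were not near a UGCAUG.

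The other members had smaller counts. HARS1 had 16 and 16 sites, EARS2 11 and 11, TARS2 17 and 18, MARS2 16 and 17, AARSD1 21 and 19, and YARS1 13 and 11. LARS2 and CARS2, the mitochondrial leucine and cysteine enzymes, each had 9 and 14 and a log2 ratio of -0.97 (-2.39 to 0.31), and RARS2 had 10 and 11. CARS1 (6 and 11), TARS3 (9 and 8), SARS1 (5 and 6) and FARS2 (2 and 5) stayed below 20 sites. AARS2, PARS2 and SARS2 were listed in the RBFOX2 library alone, with 1, 2 and 1 sites, and VARS1 in the enzyme-only library alone, with 1 site. A locus without a listed site has no read number in these tables, so the depth behind these absences is unknown.

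The locus named HARS2, the mitochondrial histidine enzyme, covers 2 genes, since its isoforms run on into ZMAT2. Of its unshared sites, 19 of 27 in the RBFOX2 library and 16 of 23 in the enzyme-only library fell in ZMAT2 exons and not in those of HARS2. The read number of the locus cannot be divided between the genes. AARSD1, an alanyl-tRNA editing protein, likewise overlaps a second annotated gene, as do HARS1, MARS1, SARS2, TARS2 and WARS2. The WARS2 sites described above all lay in the canonical WARS2 transcript.

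As listed, support per site was higher in the RBFOX2 library. Among member sites as listed, 557 of the 704 RBFOX2 sites and 615 of the 706 enzyme-only sites rested on a single converted read. Those with 2 or more converted reads made up 20.9% (17.9 to 24.1) in the RBFOX2 library against 12.9% (10.5 to 15.6) in the enzyme-only library. In the other named loci the shares were 14.6% and 9.64%. This share moves with the listing minimum, and in members under 500 reads in both libraries it was 10.1% (7.82 to 12.7) and 4.87% (3.18 to 7.11), against 7.22% and 4.38% in other such loci. Sites listed in both libraries numbered 113, which is 13.8% (11.5 to 16.4) of the listed member sites of each library. In the other named loci the shares were 10.5% of RBFOX2 sites and 12.4% of enzyme-only sites. Of the 113 member sites FARSB held 24, WARS1 16, NARS1 15, IARS2 14 and RARS1 10.

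Sites with 4 or more converted reads were spread over several members, and a selection follows. These read numbers are not scaled by the reads of the locus. FARSA carried an unshared site with 7 converted reads of 846 at chr19:12922588 in the 3′UTR of its canonical transcript, which another annotated transcript translates. It was accompanied by sites with 4 and 3 reads at chr19:12922549 and chr19:12922546. None of these was listed in the enzyme-only library, where FARSA sites had at most 3 converted reads of 709. In IARS1, the 3′UTR sites at chr9:92210484 and chr9:92210564 had 4 converted reads each. The unshared enzyme-only sites with most reads, 4 each, were synonymous at codon 591 of RARS1 (chr5:168517962) and missense at codon 270 of YARS1 (chr1:32786952). Of sites listed in both libraries, one that was synonymous at codon 633 of MARS1 (chr12:57512896) had 5 and 2 reads, and one that was synonymous at codon 469 of WARS1 (chr14:100334884) had 4 in each. FARSB had an unshared site with 4 reads in the RBFOX2 library, missense at codon 245 (chr2:222631656).

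**Figure D4:**
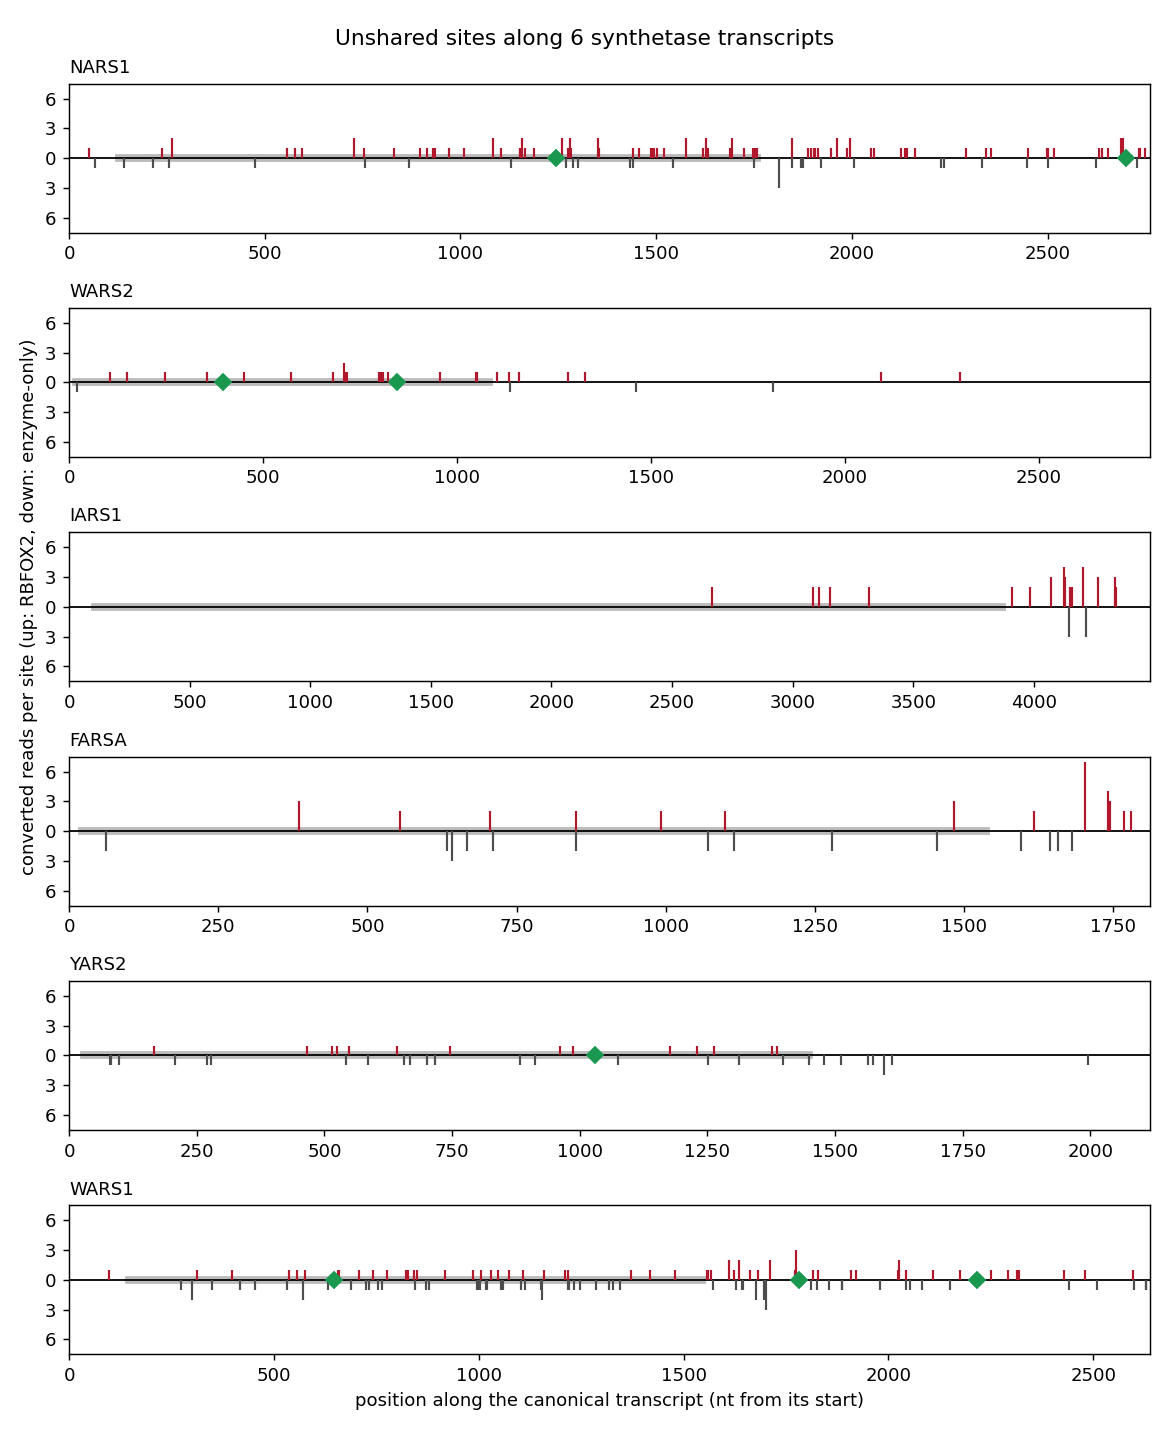
Unshared sites as listed along the canonical transcripts of NARS1, WARS2, IARS1, FARSA, YARS2 and WARS1, with converted reads upward for the RBFOX2 library and downward for the enzyme-only library. Grey bars mark coding sequence and green diamonds UGCAUG. The 3′UTR of IARS1 held 11 RBFOX2 and 2 enzyme-only sites, and the 7-read site of FARSA stands near the 3′ end of its transcript.

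Most member sites lay in positions that are coding in at least 1 annotated transcript. In exons of the loci, 70.7% (67.2 to 74.0) of sites were coding in the RBFOX2 library and 73.3% (69.8 to 76.5) in the other, against 49.5% and 54.1% in the other named loci. Coding positions made up 55.2% of the exonic cytosines of the members, weighted by their RBFOX2 sites, and 42.6% in the other loci. The 3′UTR held 23.8% (20.7 to 27.1) and 22.2% (19.2 to 25.4) of member sites, and 41.7% and 35.7% of those in other loci. Many of these positions are also 3′UTR in another transcript. With 3′UTR counted first, coding shares were 31.6% and 26.9% and 3′UTR shares 62.9% and 68.6%, while by the canonical transcript alone coding shares were 70.5% and 72.5%. With coding sequence first, both sets had a lower coding share and a higher 3′UTR share in the RBFOX2 library. The intervals of the 2 libraries overlapped in the members, with 703 exonic sites in each. They did not in the other loci, with 104950 and 86754. Interval width follows these numbers, so a different gap between the libraries in the 2 sets was not shown. With each canonical transcript divided into 3 parts of equal length, the one at the 3′ end held 36.9% (33.2 to 40.7) of the sites of the RBFOX2 library and 40.4% (36.6 to 44.2) of those without antibody, where 31.6% of the cytosines lie.

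By their effect on the codon, 223 of 496 coding RBFOX2 sites were synonymous, 243 missense and 30 created a stop codon. The enzyme-only library had 236, 239 and 37 among 512. These shares, 45.0%, 49.0% and 6.05% in the RBFOX2 library, lay near those of all coding cytosines in the same transcripts (41.1%, 51.1% and 7.76%). Stop codons with at least 2 converted reads in the RBFOX2 library were at codon 298 of EPRS1, 135 of FARSB, 816 of IARS2, 192 of MARS1, 49 of NARS1 and 326 of SARS1, each with 2 reads. In the enzyme-only library they were at codon 292 of RARS1, with 3 reads, and codon 145 of WARS1, with 2. The deaminase was added to fixed cells, so no protein was made from these converted codons.

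The base before the edited cytosine was A or U at 72.8% (69.4 to 76.1) of exonic member sites in the RBFOX2 library and 65.6% (61.9 to 69.1) in the enzyme-only library. Over all exonic cytosines of the same loci the share was 49.6% and 48.3%. The other named loci had 71.7% and 63.8%, so the members resembled them in both libraries. Where at least 2 converted reads were required, the member shares were 82.3% and 70.3%. NARS2 had the widest gap among the well covered members, with 89.7% of 29 RBFOX2 sites and 55.6% of 18 enzyme-only sites. NARS1 had 80.2% and 66.7%, and IARS2 81.7% and 78.0%.

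UGCAUG was present in the exons of 24 of the 36 member loci, with 49 occurrences in all. Distances to it were taken on the genome, so a site across an intron from a motif was not counted as near it. An exonic cytosine within 50 nt of the motif, searched on the transcribed strand of the genome, existed in 27 of 36 members (75.0%) and in 59.6% of the other named loci, which have fewer exonic cytosines (a median of 715 against 886). Within 50 nt of the motif lay 38 of 703 exonic RBFOX2 sites of the members (5.41%, 3.85 to 7.34) and 19 of 703 enzyme-only sites (2.70%, 1.63 to 4.19). The exonic cytosines of the same loci, weighted by their sites, gave 4.09% and 3.31%. The observed share was thus 1.32 times the expected share in the RBFOX2 library (0.942 to 1.79) and 0.816 times in the enzyme-only library (0.494 to 1.27). With a window of 200 nt the RBFOX2 ratio was 1.24 (1.05 to 1.46), and with shared sites kept it was 1.45 (1.08 to 1.89), and both intervals lay above 1. The enzyme-only ratios were then 1.07 and 1.06, with intervals that include 1. These ratios include the ZMAT2 exons of the HARS2 locus, and they were not computed for exons of the members alone. In the other named loci the ratios of unshared sites within 50 nt were 1.53 (1.49 to 1.58) and 0.952 (0.912 to 0.994).

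The member ratio depended on the neighbouring gene ZMAT2. Of the 38 RBFOX2 sites, 7 belonged to the HARS2 locus and lay near motifs in ZMAT2 exons, such as the one shown above. With sites and cytosines limited to exons of the member itself, 30 of 681 RBFOX2 sites were within 50 nt, 1.05 times the expected share (0.715 to 1.49), and 19 of 684 enzyme-only sites, 0.855 times (0.517 to 1.33). The mitochondrial enzymes had a ratio of 2.31 (1.34 to 3.67) with HARS2 and 1.69 (0.782 to 3.16) without it, where 9 of 215 sites were near a motif. The cytosolic enzymes had 1.01 (0.637 to 1.51). For unshared sites within 50 nt on the genome, more sites near the motif than expected were therefore not detectable in the synthetase exons themselves. This measure misses sites that are near a motif in the spliced transcript but across an intron from it. The upper bound of 1.49 lay just under the 1.53 of the other loci, which were not limited to exons of 1 gene, while the interval over all member exons included it.

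**Figure D5:**
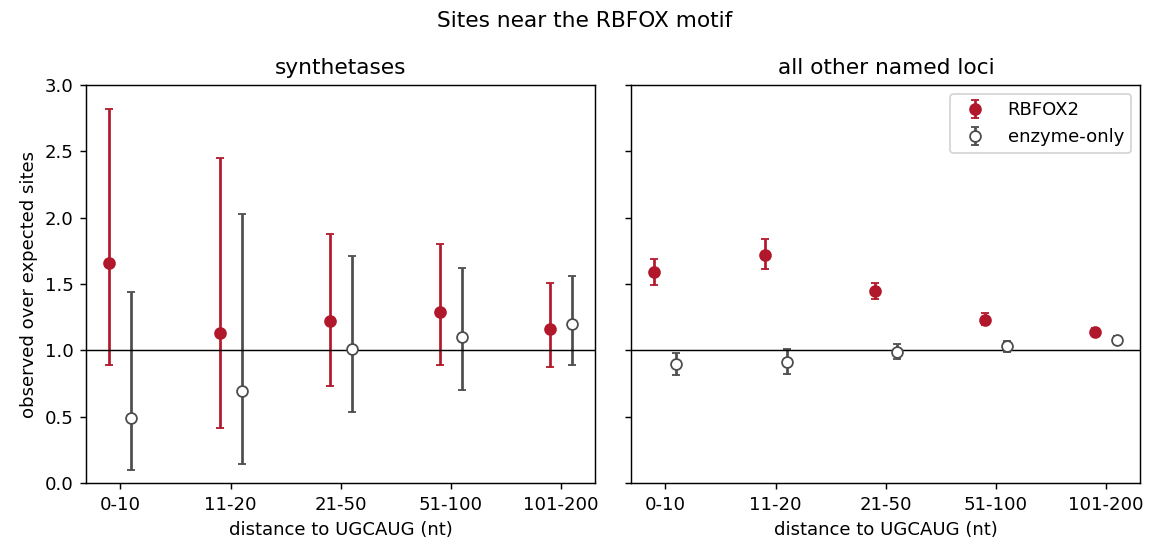
Observed over expected number of exonic sites by distance to the nearest UGCAUG, for the synthetases (left) and all other named loci (right), with 95% intervals for counting error. Within 10 nt the synthetases had 13 RBFOX2 sites where 7.83 were expected (ratio 1.66, 0.887 to 2.82) and 3 enzyme-only sites where 6.07 were expected.

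At single motifs the counts were small. Of the 2 exonic motifs of NARS1, the one near the end of the 3′UTR had 7 unshared RBFOX2 sites, 1 unshared enzyme-only site and 1 shared site within 50 nt. Those listed in the RBFOX2 library lay 4 to 46 nt away. The shared site is among the cytosines marked above. The RBFOX2 sites at chr18:57600726 and chr18:57600731 had 2 converted reads each. The other NARS1 motif, in coding sequence, had no site within 50 nt on the genome. Sites near it in the spliced transcript but across an intron were not counted. Along the canonical transcript, unshared RBFOX2 sites at positions 1259, 1275, 1279 and 1283 lay within 50 nt of this coding motif. Unshared enzyme-only sites at positions 1269 and 1287 did too. The sites at 1259 and 1279 had 2 converted reads each, and the others had 1. The motif ratios above were not recomputed along spliced transcripts. The 3′UTR motif of WARS1 shown above had 4 and 2 unshared sites and 3 shared sites, and the cytosine 3 nt upstream of it at chr14:100334654 had 3 converted reads in the RBFOX2 library and was not listed in the other. Over its 4 exonic motifs, WARS1 had 8 RBFOX2 and 3 enzyme-only sites within 50 nt, and 11.4% of its exonic cytosines lie that close, more than in any other member. NARS1 and WARS1 together thus gave 15 of the 38 RBFOX2 sites.

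In coding sequence, the FARSB motif had 3 unshared RBFOX2 sites, 4 enzyme-only sites and 3 shared sites. Its site at chr2:222624371, synonymous at codon 357, had 3 converted reads in the RBFOX2 library against 1 in the enzyme-only library. The WARS2 motif had 4 RBFOX2 sites and 0 enzyme-only sites, 20 to 44 nt away, each with 1 converted read, and the 3 shown in the sequence above follow G or C. The NARS2 coding motif had 2 and 0 sites, and a second NARS2 motif in the 3′UTR had 1 and 0. At the RARS1 motif there were 1 and 3 unshared sites and 1 shared site at chr5:168495379. LARS1 had 3 and 0 sites over 2 motifs, YARS2 1 and 1, and CARS2 1 and 1 at different motifs. Motifs with enzyme-only sites alone were those of EPRS1, EARS2, RARS2 and TARS2, with 1 site each, and that in the 3′UTR of HARS2, with 2. The RARS2 and TARS2 motifs lay outside the exons of the loci.

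The isoform measure of the study, editsC, gives, for each isoform, the edited share of its exonic cytosines. Here each unshared site of a locus was counted for every isoform whose exons hold it. The filters of the study on isoform coverage and edit fraction were not applied. Over all loci, 108386 isoforms with at least 1 unshared site had a median editsC of 2.07% in the RBFOX2 library against 1.68% in the enzyme-only library. The 824 member isoforms had medians of 2.51% and 2.88%. Relative to a line fitted over all isoforms, 65 member isoforms (7.89%) lay more than 1.5 SD of the residuals above it, against 6.47% of all isoforms, and 76 (9.22%) lay below it, against 2.45%. All isoforms of a locus share its sites and reads, so these counts are of a few loci.

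The isoforms below the line came from 2 loci, all 32 isoforms of TARS1 and 44 of 46 of MARS1, the loci on either side of 500 reads. With the common read minimum, 19 of 792 member isoforms (2.40%) were below the line, against 2.18% of all isoforms, 8 of them of TARS1 and 0 of MARS1. Above the line were 33 of 35 NARS1 isoforms, 11 each of FARSB and IARS2, 5 of RARS1, 3 of 5 WARS2 and 2 of IARS1. The median editsC of NARS1 isoforms was 16.5% in the RBFOX2 library (range 4.76 to 22.0) and 5.86% in the enzyme-only library (4.28 to 7.69). With the common read minimum 48 member isoforms (6.06%) were above the line, against 6.61% of all isoforms. The counts were then 33 for NARS1, 5 for IARS2, 3 for FARSB, 3 for WARS2, 2 for IARS1 and 2 for RARS1, while 1 FARSB and 2 RARS1 isoforms were below the line.

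Other genes of tRNA charging and of the response to uncharged tRNA were counted from a list of 20, of which 18 had a listed site. Of these, 10 had at least 20 sites: 3 had a log2 ratio over 1 (30.0%, against 15.7% of all such loci) and 1 of 10 under -1 (against 13.4%). AIMP1 and AIMP2, scaffold proteins of the multisynthetase complex, had 39 and 14 sites (1.09, 0.21 to 2.11) and 18 and 3 sites (2.04, 0.45 to 4.63). EEF1E1, another of its non-enzyme components, had 23 and 27 (-0.59, -1.46 to 0.27). Reads of the first pair were higher in the RBFOX2 library, 247 and 176 for AIMP1 and 674 and 514 for AIMP2. GCN1, which activates the kinase that senses uncharged tRNA, had 30 and 6 (1.87, 0.68 to 3.52) at 235 and 212 reads. MTFMT, which formylates the mitochondrial initiator tRNA, had 6 and 16 (-1.70, -3.42 to -0.35) at 88 and 80 reads. Within 50 nt of UGCAUG, AIMP1 had 6 RBFOX2 and 0 enzyme-only sites, XPOT had 5 and 1, AIMP2 and EIF2AK4 each had 1 and 0, EEF1E1 had 0 and 4, and ASNS had 0 and 2. The pooled ratio of the 18 genes was -0.02 (-0.29 to 0.26).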

How the data were processed

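The edit tables of 2 libraries were analysed, RBFOX2 and enzyme-only, grouped by the sample descriptions, with a table of isoform models built from both. Per the methods of the study, pbmm2 placed the full-length PacBio reads on hg38, secondary alignments were dropped, and the authors' custom code found the edits. The labels name an Iso-Seq kit and the methods a Kinnex kit. For each position the authors deposited a count of converted reads, a count of reads of the whole locus, and their quotient as an edit fraction, always above 0.002. A deposited confidence score was not used.

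Loci were named by same-strand exonic overlap with GENCODE 44 (bedtools 2.31.1). Genic regions took coding sequence first, then 3′UTR and 5′UTR. Members and gene lists were chosen with earlier results of these data known. All members are named. Full values were to be given for those with at least 20 sites, the 5 highest and 5 lowest ratios, or an RBFOX2 site within 50 nt of UGCAUG, related genes past the fold, and single sites with at least 3 converted reads, a stop codon at 2 or more, or 2 or more near the motif; the text gives a selection of these. Expected shares were computed over all exonic cytosines of each locus, weighted by its sites. Intervals are Clopper-Pearson (scipy 1.17.1). Each group had a single library, and p-values were not computed. The ratio and motif calculations were tested on simulated sites. Alternatives were other read minimums, converted-read minimums, windows of 20 and 200 nt, pseudocounts, scalings and annotation orders, and the edits in annotated variants removed by the study were not removed here.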

Additional observations from a re-analysis of the deposited data

How the results depend on the processing

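No paired analysis was possible because each group has 1 library and the labels number them differently. Of 126 alternative values for the log2 ratios of single members, 116 stayed within the counting interval and the ratios of NARS1, WARS2 and YARS2 kept their sign. The other 10 all came from the requirement of at least 2 converted reads, where WARS2 was at 0.57.

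With sites as listed, 3 members were under -1 (TARS1 and MARS1 added). With the common read minimum MARS1 was at 0.71, while TARS1 stayed at -2.07 but had 14 sites, under the minimum of 20. Requiring at least 2 converted reads left 147 RBFOX2 and 91 enzyme-only member sites, 3 members with 20 sites, and 0 over 1. Of these 3, FARSA was under -1 (-1.11), with its 13 and 14 sites unchanged. YARS2 was at -2.6 but kept only 0 and 1 sites, under the minimum of 20. Leaving out loci that overlap several genes removed WARS2 and left 1 member over 1. With at least 10 sites, 3 were under -1. With at least 50 sites, 7 members were compared, 1 over 1 and 0 under -1. Scaled by reads, 0 were under -1. With the common read minimum 15.7% of enzyme-only sites had 2 or more converted reads, and sites per 1000 reads were 56.8 against 68.9 as listed. In loci under 500 reads those shares were 10.1% and 4.87%, and sites per 1000 reads 116 and 106, as the listing minimum implies. The enzyme-only motif ratio at 2 or more converted reads was 0.390. The 5′ A or U share was 82.3% and 70.3% at 2 or more converted reads, and 69.2% in the enzyme-only library with shared sites kept. Taking 3′UTR before coding sequence gave coding shares of 31.6% and 26.9% and 3′UTR shares of 62.9% and 68.6%. At 2 or more converted reads the coding shares were 65.3% and 81.3% and the 3′UTR shares 32.7% and 18.7%. In the enzyme-only library missense sites were then 54.9% and stop sites 2.82%. Isoforms above the line numbered 43 at a limit of 2 SD and 5 with 1 isoform per locus, and those below it 2 with 1 isoform per locus and 19 with the common read minimum, an alternative chosen after seeing the data, as were the limits to member exons and to the canonical transcript. The causes of the other changes were not tested.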
